A study of Mus musculus with 235 samples.

Results

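LP/J and 129S1/SvImJ are inbred mouse strains that genealogies of laboratory mice place close together, and the arrays compared here are those of their livers without drug. The comparison used every array of a control animal of either strain, 4 of LP/J and 4 of 129S1/SvImJ, which makes 8 of the 235 arrays of the series and 8 of its 124 vehicle arrays. Each array measured the left liver lobe of 1 female mouse, aged 8 to 10 weeks, that had received sterile water by oral gavage once daily for 3 days and was killed 24 hours after the last dose. Both strains were coded by the submitters as free of isoniazid-induced steatosis. The same strains were also dosed with isoniazid, an antituberculosis drug, at 100 mg/kg on the same schedule. These animals, 3 of LP/J, where animals that died were left out by the submitters, and 4 of 129S1/SvImJ, share no array with the vehicle comparison and are set beside it. Values are log2 expression values from the RMA method, so a difference of 1 is a 2-fold difference.

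Inbred strains are homozygous at nearly every locus, so that animals of a strain share their genome, and 2 strains of common descent differ where their chromosomes carry different ancestral segments. Differences in RNA between such strains can lie in the enzymes of steroid, drug and bile acid metabolism, which in mice form clusters of duplicated neighbours such as the Akr1c and Cyp3a genes. The aldo-keto reductases of the Akr1c family reduce and oxidise steroids, bile acids and xenobiotics. The Cyp3a enzymes are cytochromes P450 that oxidise many drugs and steroids.

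Some of the called genes belong to pairs within a gene cluster with near-identical sequence before their start sites, and this sequence is shown first. Akr1c12 and Akr1c13 are shown because they differed in opposite directions between the strains, and Cyp3a16 and Cyp3a44 because both were higher in LP/J. Each sequence is the 250 bases before the annotated start in RefSeq (build GRCm38.p6, from the C57BL/6J reference and from neither strain), 5′ to 3′ on the strand of the gene, with bases that did not match the partner in a pairwise alignment in capitals. Akr1c12 lies on the minus strand at chr13:4279400-4279649, and Akr1c13 on the plus strand at chr13:4190937-4191186. Cyp3a16 and Cyp3a44 lie on the minus strand at chr5:145469724-145469973 and chr5:145805875-145806124.
Akr1c12: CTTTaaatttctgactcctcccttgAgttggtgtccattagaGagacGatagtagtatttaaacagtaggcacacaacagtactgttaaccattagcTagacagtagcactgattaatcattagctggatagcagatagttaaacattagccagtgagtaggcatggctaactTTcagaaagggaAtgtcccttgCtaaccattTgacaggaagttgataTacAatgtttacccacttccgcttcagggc
Akr1c13: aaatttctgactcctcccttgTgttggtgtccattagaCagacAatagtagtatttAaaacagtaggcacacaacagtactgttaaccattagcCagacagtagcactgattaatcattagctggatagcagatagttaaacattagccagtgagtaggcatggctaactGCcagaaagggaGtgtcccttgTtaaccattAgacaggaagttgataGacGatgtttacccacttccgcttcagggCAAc
Cyp3a16: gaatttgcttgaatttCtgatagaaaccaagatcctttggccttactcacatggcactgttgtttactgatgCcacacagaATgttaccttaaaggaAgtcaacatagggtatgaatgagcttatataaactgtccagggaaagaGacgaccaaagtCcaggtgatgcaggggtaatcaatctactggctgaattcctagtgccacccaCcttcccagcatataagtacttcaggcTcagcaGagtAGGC
Cyp3a44: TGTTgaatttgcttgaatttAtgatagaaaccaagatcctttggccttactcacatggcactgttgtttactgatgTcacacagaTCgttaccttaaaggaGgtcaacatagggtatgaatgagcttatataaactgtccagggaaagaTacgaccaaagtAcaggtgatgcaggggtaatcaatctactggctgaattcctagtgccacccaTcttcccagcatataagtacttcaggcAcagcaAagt
The Akr1c12 and Akr1c13 sequences were identical at 235 of 250 bases (94%), and those of Cyp3a16 and Cyp3a44 at 236 of 250 bases (94.4%). The other 20 pairs among the 7 Akr1c genes with an entry had 55.6% to 64.4% identical bases. The TATA box letters TATAAA, searched on both strands, were present in both Cyp3a windows and in neither of the Akr1c12 and Akr1c13 windows, and in 13% of 27025 mouse windows of the same length. The letters CCAAT, searched likewise and not overlapping these, were in none of the 4 windows and in 34.5% of all windows. Only these windows were compared, and not the transcripts or the array probes. Cross-hybridisation between Akr1c or between Cyp3a members was not tested, so the assignment of signal to single members is uncertain.

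A small share of genes was called different between the strains, most of them by less than 2-fold. Of 18146 genes, 307 passed at an adjusted p under 0.05 (1.69%), 148 of them higher in LP/J (0.816%) and 159 lower (0.876%). The median size of the difference among these 307 genes was 0.831 log2 units, a 1.78-fold difference, and 107 differed at least 2-fold, 21 at least 4-fold and 11 at least 8-fold. Over all genes the median difference was 0.012 and the median size 0.144. The 4 values of LP/J and the 4 of 129S1/SvImJ did not overlap in 279 of the 307 genes, against 10.8% of all genes. Of the 307 genes, 151 had 1 probe set, among them Dhdh, 0610005C13Rik, Tulp2 and Akr1c18 below. Of the 156 with more, 104 had all probe sets of the same sign and 39 had at least 2 that passed. A sequence variant under a probe can lower 1 probe set in all animals of a strain, and this was not tested.

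**Figure D1:**
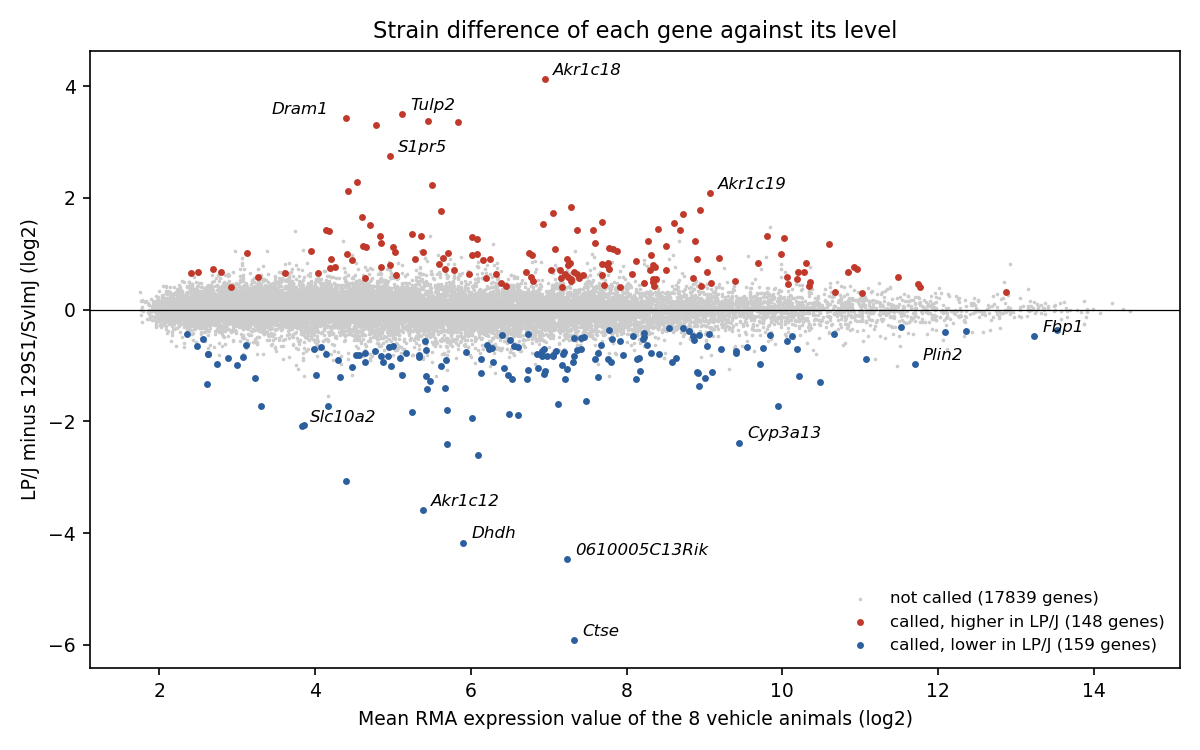
Difference between the strain means of the vehicle animals (LP/J minus 129S1/SvImJ, log2) for 18146 genes against the mean RMA value of the 8 animals (log2). Points in colour are the 307 genes called, 148 higher and 159 lower in LP/J, and Ctse lies lowest at -5.91 and Akr1c18 highest at 4.13.

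The fit was limma on all 235 arrays, with the animal as the replicate. Of the 307 genes, 302 had the same sign in each of the 3 scan dates that held both strains. The genes were called on these same arrays, so this agreement is no separate check. The count of called genes was 370 with the scan date as a term. It was 152 with the date as a block over the 8 arrays alone, with 116 of the 307 among them. Without the 21 arrays of narrow spread in the series, none of them among the 8, 752 genes passed, and without 129S1/SvImJ vehicle animal 2 the count was 195. The call of a gene could also depend on a fit of the 15 arrays of both strains, on one of the 8 vehicle arrays alone or on the date block over these 8. Calls lost there are given beside the genes chosen by the naming rule. The medians of the 8 arrays ran from 4.005 to 4.068 and their standard deviations over probe sets from 2.248 to 2.294.

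The largest difference was that of Ctse, cathepsin E, an aspartic protease of the endosomal system. Its values were 4.71, 4.58, 4.06 and 4.11 in the LP/J animals and 10.59, 10.60, 10.16 and 9.73 in the 129S1/SvImJ animals. All LP/J animals lay near the array median and all 129S1/SvImJ animals more than 5 log2 units above them. The difference was -5.91 (SE 0.28, adjusted p = 4.16e-46), and was -6.02, -6.10 and -6.18 within the 3 scan dates. A second, dimmer probe set of Ctse differed by 0.22 and did not pass, and the mean of both probe sets gave -2.84.

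Dhdh encodes dihydrodiol dehydrogenase, an enzyme that oxidises dihydrodiols of aromatic compounds. LP/J animals had 3.70, 3.89, 3.93 and 3.73, and 129S1/SvImJ animals 7.97, 7.64, 8.26 and 8.06. The groups were far apart with little spread in either, and the difference was -4.17 (SE 0.16, adjusted p = 1.08e-60). The transcript 0610005C13Rik, a few genes away, had 4.50, 4.75, 4.80 and 5.94 in LP/J and 9.44, 9.46, 9.43 and 9.49 in 129S1/SvImJ. LP/J animal 4 stood above the other LP/J animals yet below every 129S1/SvImJ animal, and the difference was -4.46 (SE 0.14, adjusted p = 9.68e-73). This SE uses the spread shared over all groups, while the SD was 0.64 in LP/J and 0.02 in 129S1/SvImJ. The adjusted p was 1.1e-05 in the limma fit of the 8 vehicle arrays and 0.00366 with the date block.

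Tulp2, a member of the tubby-like family best known from testis, went the other way. It had 6.97, 6.92, 6.81 and 6.79 in LP/J and 3.46, 3.50, 3.58 and 2.93 in 129S1/SvImJ. LP/J was higher by 3.50 (SE 0.18, adjusted p = 1.03e-41). The 129S1/SvImJ values lay below the array medians, and whether such values are above background is not known, since no detection call was used here.

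Akr1c18, the 20-alpha-hydroxysteroid dehydrogenase that inactivates progesterone, was the gene with the largest excess in LP/J. It had 8.91, 9.14, 8.84 and 9.19 in LP/J and 5.19, 4.68, 5.0 and 4.68 in 129S1/SvImJ. The groups did not overlap, and the difference was 4.13 (SE 0.22, adjusted p = 1.43e-41). Akr1c12, another reductase of the family, had 2.47, 4.19, 3.19 and 4.48 in LP/J and 7.40, 7.29, 6.96 and 7.04 in 129S1/SvImJ. It was lower in every LP/J animal, with a wider spread among them, by -3.59 (SE 0.29, adjusted p = 3.03e-22).

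Other genes with a large excess in LP/J and no overlap between the strains included a membrane flippase, a lipid receptor and an autophagy regulator. Dram1, a p53-induced regulator of autophagy, had 6.09, 6.42, 6.09 and 5.86 in LP/J against 2.68, 2.80, 2.78 and 2.51, a difference of 3.42 (SE 0.31, adjusted p = 5.35e-19). Atp11a, a phospholipid flippase of the plasma membrane, had 6.56, 6.09, 6.57 and 6.50 against 2.92, 3.46, 3.46 and 2.70, a difference of 3.30 (SE 0.35, adjusted p = 2.14e-14). Its second probe set differed by 0.69 and did not pass, and the mean of both gave 1.99. S1pr5, a receptor for sphingosine 1-phosphate, had 6.38, 6.12, 6.36 and 6.45 against 3.19, 3.64, 3.23 and 4.28, a difference of 2.74 (SE 0.26, adjusted p = 1.86e-17). Tpm2, beta-tropomyosin, a muscle protein of thin filaments, had 6.94, 6.43, 7.42 and 7.73 against 3.72, 4.24, 3.40 and 3.69. Its difference was 3.37 (SE 0.40, adjusted p = 8.5e-12), and 2 of its 4 probe sets passed, all 4 with the same sign and a mean of 1.77. Mcf2l was higher by 2.29, Igkv8-30, an immunoglobulin kappa variable gene, by 2.23, Dct, the dopachrome tautomerase of melanin synthesis, by 2.12, and Enho, which encodes the secreted peptide adropin, by 1.84. The call of Igkv8-30 was lost without 129S1/SvImJ vehicle animal 3 (difference 1.72, adjusted p = 0.0912), the animal with the lowest value, 2.86, against 4.20 to 5.57 in the other 3. It was also lost in the fit of 15 arrays (adjusted p = 0.066) and with the date block (0.0911), and that of Dct with the date block (0.1). The 4 probe sets of Enho ran from 0.01 to 1.84, 2 of them passed, and their mean was 0.76.

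Genes much lower in LP/J included transcription and RNA-modifying factors and transcripts known only by clone names. Rfx4, a transcription factor of the RFX family, had 4.56, 4.10, 4.68 and 4.63 in LP/J against 6.50, 7.30, 7.22 and 6.59, a difference of -2.41 (SE 0.34, adjusted p = 9.68e-09), while its second probe set differed by -0.13 and did not pass, and the mean of both was -1.27. Adat2, the catalytic subunit of a tRNA adenosine deaminase, had 5.57, 5.34, 6.01 and 5.71 against 7.44, 7.76, 7.50 and 7.48, a difference of -1.88 (SE 0.25, adjusted p = 2.03e-09). Tdrp differed by -1.94 (SE 0.25, adjusted p = 2.01e-10). The transcripts 4930581F22Rik, Gm2788 and BC018473 differed by -3.07, -2.60 and -2.07. The second probe set of BC018473 differed by 0.03, and the mean of both was -1.02.

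**Figure D2:**
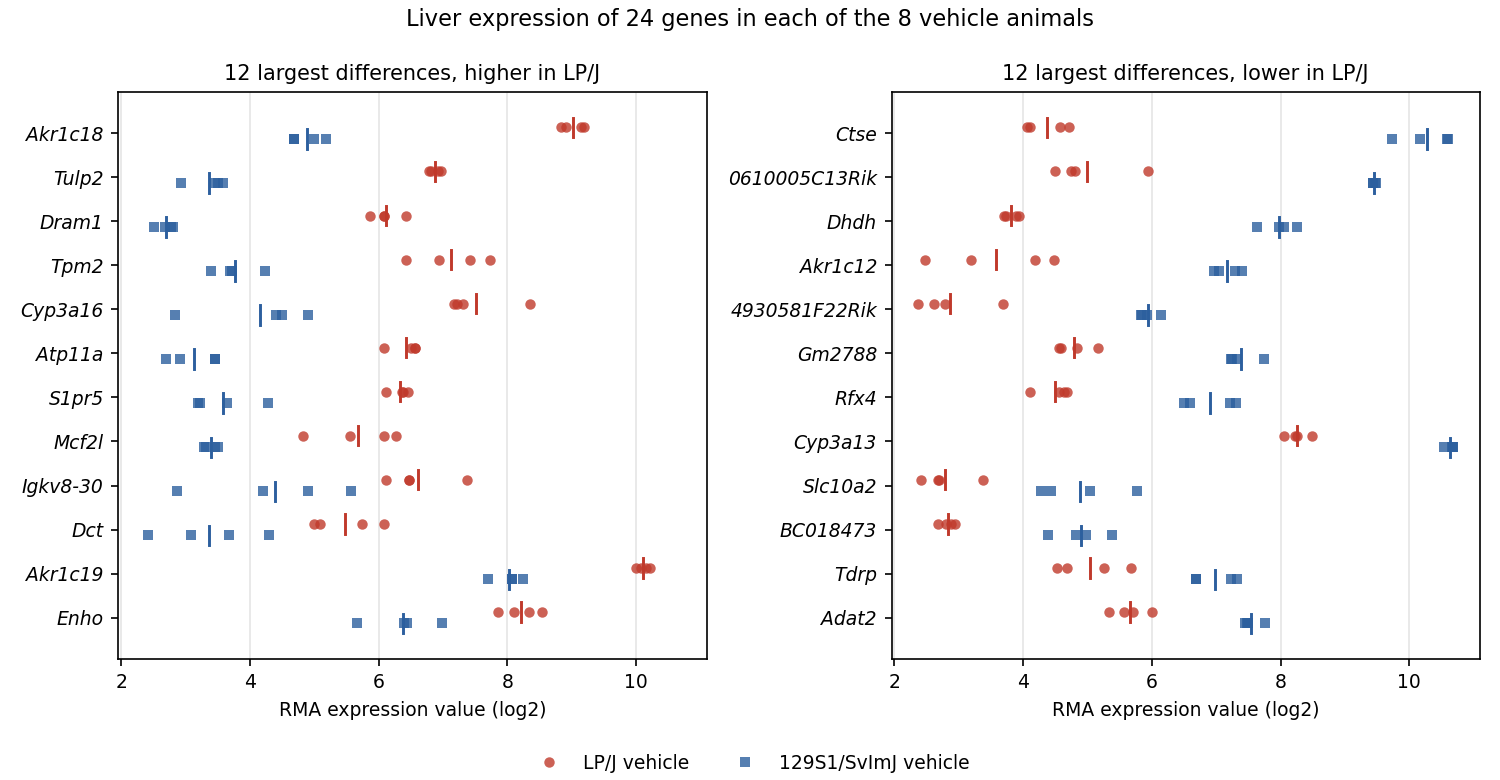
RMA expression values (log2) of the 12 genes with the largest differences in each direction among called genes whose groups did not overlap, 1 point per vehicle animal, 4 of LP/J (circles) and 4 of 129S1/SvImJ (squares), with group means as vertical bars. For Cyp3a13 the 129S1/SvImJ animals lie between 10.54 and 10.68 and the LP/J animals between 8.05 and 8.49, while for Akr1c12 the LP/J animals range from 2.47 to 4.48.

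Some called genes lay near each other on the chromosome. Of the 307 genes, 304 could be placed in the RefSeq gene order, and 98 of them (32.2%) fell into 41 runs, taken as called genes with at most 5 measured genes not called between neighbours. Of the 17794 placed genes that were not called, 16.5% had a called gene within the same reach. Of the runs, 32 held 2 called genes, 5 held 3 and 4 held 4 or more, and 20 of the 41 had a single direction. In 10 runs of 2 no measured gene lay between the called ones. The run of the Akr1c cluster covered 6 of 8 measured neighbours. Akr1c14, which acts on 3-alpha-hydroxysteroids, was higher in LP/J by 1.18 (SE 0.30, adjusted p = 0.0118), Akr1c13 by 0.68 (SE 0.14), Akr1c19 by 2.09 (SE 0.25) and Akr1c21 by 0.99 (SE 0.26, adjusted p = 0.0145), beside the higher Akr1c18 and the lower Akr1c12. Akr1c19 had 10.07, 10.15, 10.00 and 10.21 in LP/J and 8.08, 8.08, 8.24 and 7.70 in 129S1/SvImJ, with no overlap. Akr1c6, a 17-beta-hydroxysteroid dehydrogenase of liver, differed by 0.21 (95% interval -0.25 to 0.66) and Akr1c20 by -0.31 (-0.83 to 0.21), and neither passed. The call of Akr1c14 was lost without 129S1/SvImJ vehicle animal 2 (difference 1.11, adjusted p = 0.0682), and that of Akr1c21 without LP/J vehicle animal 2 (0.83, adjusted p = 0.136), LP/J vehicle animal 3 (0.94, 0.067) or 129S1/SvImJ vehicle animal 2 (0.85, 0.143). The calls of Akr1c13 (adjusted p = 0.119) and Akr1c21 (0.151) were lost with the date block, and that of Akr1c21 also in the fit of 15 arrays (0.066).

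The run with Dhdh, Tulp2 and 0610005C13Rik also held Nucb1, a calcium-binding protein of the Golgi, and Bcat2, the mitochondrial aminotransferase of branched-chain amino acids. Nucb1 was lower in LP/J by -0.80 (SE 0.12, adjusted p = 7.24e-08) and Bcat2 by -1.17 (SE 0.18, adjusted p = 1.34e-07). Between them, Ppp1r15a, Plekha4 and Hsd17b14 differed by 0.14, 0.25 and 0.02 and did not pass. In the run around Ctse, Pm20d1, a secreted enzyme that makes N-acyl amino acids, was lower by -1.24 (SE 0.20, adjusted p = 1.12e-06). Slc45a3, a membrane transporter, was lower by -0.93 (SE 0.21, adjusted p = 0.0023), and Ikbke, a kinase of innate immune signalling, was higher by 1.03 (SE 0.26, adjusted p = 0.0123). The Slc45a3 call was lost without 129S1/SvImJ vehicle animal 2 (-0.77, adjusted p = 0.0656), and the Ikbke call without LP/J vehicle animal 1 (0.97, adjusted p = 0.0595), LP/J vehicle animal 3 (0.95, 0.0722) or 129S1/SvImJ vehicle animal 2 (0.93, 0.0866). The fourth run held Mrps12, a mitochondrial ribosomal protein, higher by 0.80 (SE 0.13, adjusted p = 4.29e-06), and Ech1, an auxiliary enzyme of fatty acid oxidation, higher by 0.58 (SE 0.11, adjusted p = 3.11e-05). Its other members had weaker support, Lgals4, a galectin, at 0.64 (adjusted p = 0.027) and Hnrnpl, a splicing regulator, at -0.56 (adjusted p = 0.0387). The Lgals4 call was lost without LP/J vehicle animal 1, 2 or 4 or 129S1/SvImJ vehicle animal 3 or 4 (adjusted p 0.0518 to 0.186), and the Hnrnpl call without LP/J vehicle animal 1, 3 or 4 or 129S1/SvImJ vehicle animal 2 or 3 (adjusted p 0.0649 to 0.248). The second probe set of Hnrnpl differed by 0.43, the opposite sign, and the mean of both by -0.07 (adjusted p = 0.874). In the fits of 15 and of 8 arrays the calls of Slc45a3 (adjusted p = 0.147 and 0.0535), Lgals4 (0.0631 and 0.0714) and Hnrnpl (0.147 and 0.0917) were lost. With the date block those of Ech1 (0.125), Lgals4 (0.189) and Hnrnpl (0.0961) were lost. With each array centred on its median those of Lgals4 (0.0677) and Hnrnpl (0.0965) were lost, and with the date as a term that of Hnrnpl (0.0538).

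**Figure D3:**
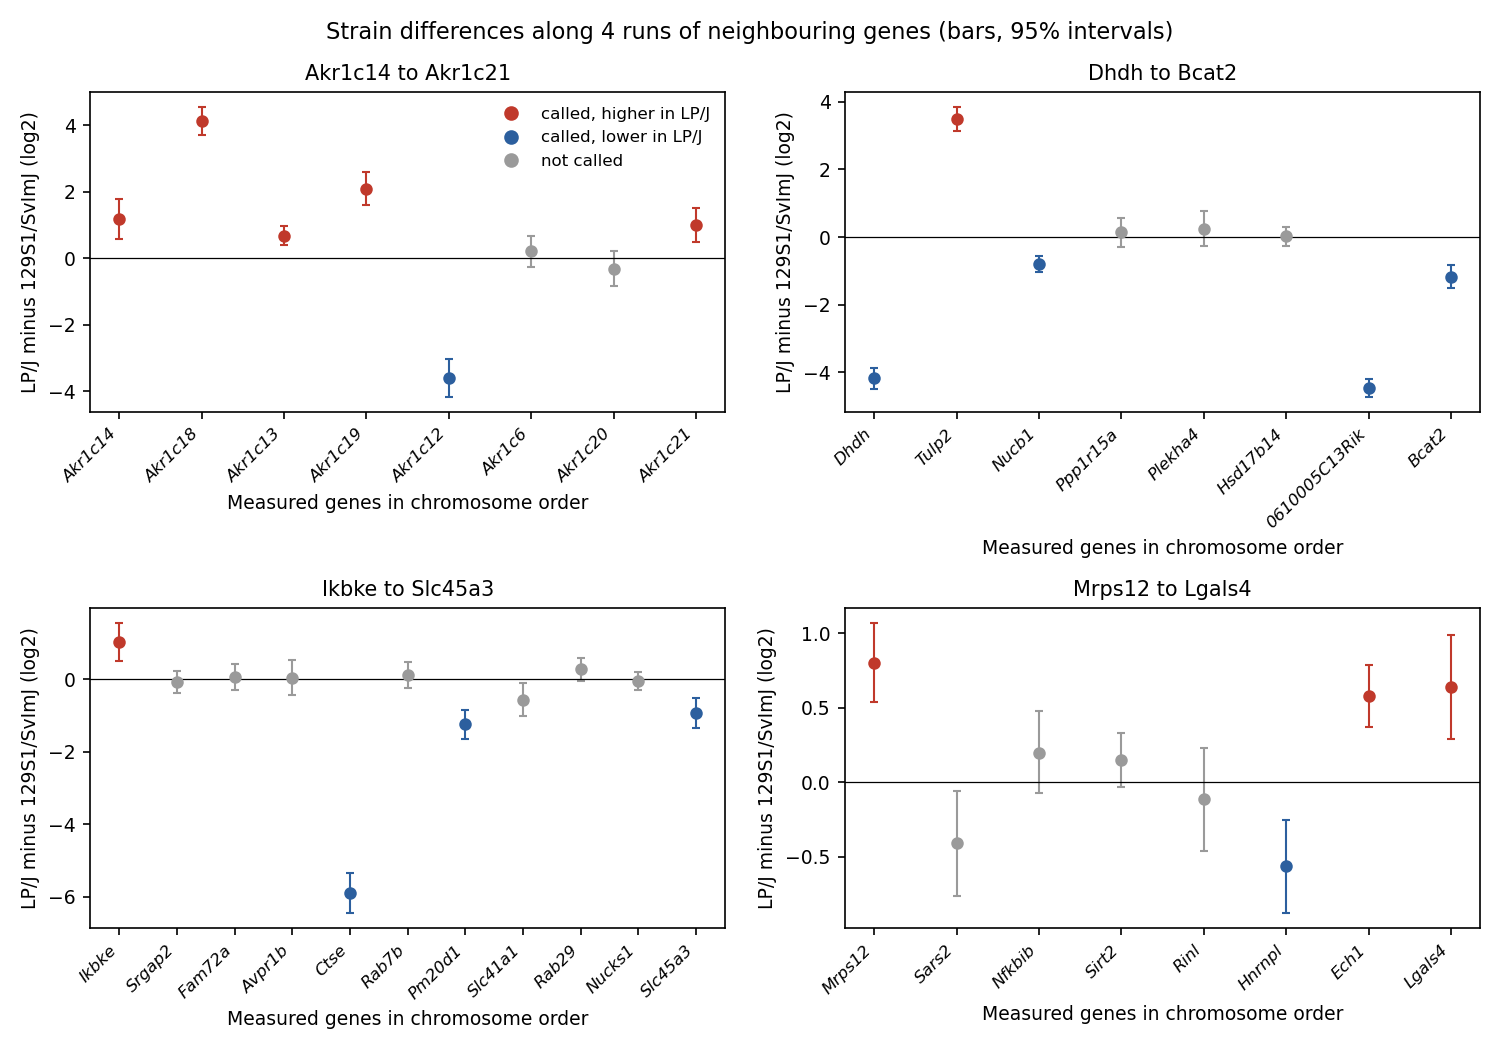
Difference between the strains (LP/J minus 129S1/SvImJ, vehicle animals, log2) for each measured gene along the 4 runs with at least 4 called genes, in chromosome order, with 95% intervals; the horizontal axis gives order and not distance. Akr1c12 at -3.59 lies between Akr1c19 at 2.09 and Akr1c6 at 0.21, and Dhdh at -4.17 lies next to Tulp2 at 3.50.

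Cytochromes P450 of drug metabolism had 3 of 39 measured members called (7.69%, against 1.69% of all genes), all of the Cyp3a family, with a median difference over the list of -0.05 against 0.012 over all genes. Cyp3a13 had 8.22, 8.26, 8.49 and 8.05 in LP/J and 10.54, 10.68, 10.68 and 10.66 in 129S1/SvImJ. It was lower in LP/J by -2.38 (SE 0.21, adjusted p = 6.35e-19), a 5.22-fold difference. Cyp3a16 had 7.22, 7.31, 7.17 and 8.35 in LP/J and 2.83, 4.50, 4.41 and 4.90 in 129S1/SvImJ, with no overlap but a wide spread in the second group. It was higher in LP/J by 3.35 (SE 0.82, adjusted p = 0.00666), and Cyp3a44 was higher by 1.57 (SE 0.39, adjusted p = 0.00847). Both of these calls were lost without 129S1/SvImJ vehicle animal 1, with 2.91 (adjusted p = 0.0746) for Cyp3a16 and 1.41 (adjusted p = 0.0653) for Cyp3a44, which left 1 called member of the list. The Cyp3a16 call was also lost in the fit of 15 arrays (adjusted p = 0.066). None of 21 glutathione S-transferases and none of 19 sulfotransferases and glucuronosyltransferases was called. The strains did not overlap in 4 of the 21 (differences over the list -1.07 to 0.20). They did not overlap in 4 of the 19 either (-0.43 to 0.82), against 10.8% of all genes.

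None of the 14 measured genes that acetylate, hydrolyse or oxidise isoniazid was called between the vehicle livers. Nat2, an arylamine N-acetyltransferase, had 8.48, 8.53, 8.72 and 8.73 in LP/J and 8.87, 8.97, 8.56 and 9.05 in 129S1/SvImJ, with overlap, a difference of -0.25 (SE 0.16, adjusted p = 0.578). Cyp2e1, the P450 that oxidises isoniazid metabolites and ethanol, differed by -0.01 (SE 0.06, adjusted p = 0.975), and Nat1, a related transferase, by less than 0.01 (SE 0.20). Ces1d, a carboxylesterase, differed by -0.37 (SE 0.28, adjusted p = 0.667), and Alas1, the rate-limiting enzyme of heme synthesis, by 0.25 (SE 0.32, adjusted p = 0.836). The values of the strains overlapped in all 5 of these genes. Over the 14 genes of the list the differences ran from -0.68 to 0.36. The strains did not overlap in 2 of the 14, against 10.8% of all genes.

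Bile acid genes had 6 of 34 measured members called (17.6%, against 1.69% of all genes), 4 higher and 2 lower in LP/J, with a list median of 0.04. Slc10a2, the sodium-dependent bile acid transporter known from ileum and bile duct cells, had 3.37, 2.67, 2.70 and 2.42 in LP/J and 5.04, 4.44, 4.27 and 5.77 in 129S1/SvImJ. All 129S1/SvImJ animals were above all LP/J animals, and the difference was -2.09 (SE 0.28, adjusted p = 1.78e-09). None of the 7 measured bile duct markers was called, and their mean level per animal ran from 3.84 to 4.07 in LP/J and from 3.79 to 3.87 in 129S1/SvImJ. These levels and the LP/J values of Slc10a2 lay near or below the array medians (4.005 to 4.068). At such low signals the markers cannot tell whether the content of bile duct cells differed. Cyp8b1, the sterol 12-alpha-hydroxylase that sets the share of cholic acid, was lower by -0.89 (SE 0.23, adjusted p = 0.012), with 10.96, 10.46, 10.52 and 10.60 against 11.37, 11.62, 11.66 and 11.44. The groups did not overlap, but the call was lost without LP/J vehicle animal 2 or 3 or 129S1/SvImJ vehicle animal 2 or 3 (adjusted p 0.0519 to 0.0583). Abcc6, a hepatocyte transporter for which several inbred strains are known to carry a low-expression allele, had 9.57, 9.30, 9.43 and 9.34 in LP/J and 7.87, 7.94, 8.36 and 7.74 in 129S1/SvImJ. It was higher in LP/J by 1.43 (SE 0.16, adjusted p = 5.15e-13) without overlap. Cyp7a1, which starts the classic route from cholesterol to bile acids, differed by -0.88 with overlap and did not pass (adjusted p = 0.388).

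The remaining called members of this list were the organic anion transporters Slco1a1 and Slco1a4, which take up bile acids and drugs and are neighbours, and Atp8b1, a flippase of the bile canaliculus. Slco1a1 had 8.41, 8.56, 8.28 and 7.88 in LP/J and 5.35, 7.30, 7.37 and 7.38 in 129S1/SvImJ. The groups did not overlap, but 129S1/SvImJ vehicle animal 1 lay far below the other 3, and without it the difference of 1.43 (SE 0.39, adjusted p = 0.0267) was 0.93 (adjusted p = 0.35). The call was also lost without LP/J vehicle animal 1 (1.39, 0.0833), 2 (1.34, 0.0981) or 3 (1.43, 0.0684). Slco1a4 was higher by 0.83 (adjusted p = 0.0281) and Atp8b1 by 0.71 (adjusted p = 0.0342), both without overlap. The Slco1a4 call was lost without LP/J vehicle animal 1, 2 or 3 or 129S1/SvImJ vehicle animal 1, 2 or 4 (adjusted p 0.0512 to 0.154), and the Atp8b1 call without LP/J vehicle animal 2, 3 or 4 or 129S1/SvImJ vehicle animal 1, 2 or 3 (adjusted p 0.0605 to 0.146). Slco1a4, Atp8b1 and Socs2 below were named after their values were seen. With the date block the calls of Cyp8b1 (adjusted p = 0.07), Slco1a1 (0.0935) and Atp8b1 (0.0642) were lost, and that of Slco1a1 also in the fits of 15 (0.213) and 8 arrays (0.106). The count of called bile acid genes fell to 2 without LP/J vehicle animal 2 or 3 and to 3 without 129S1/SvImJ vehicle animal 1 or 2.

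Genes of the growth hormone axis and sex-biased liver genes had the highest share of called members among the 42 lists examined, 6 of 23 (26.1%, against 1.69% of all genes), 3 higher and 3 lower in LP/J, with a median of 0.08. Slco1a1 and Slco1a4 belong to this list as well as to that of bile acids. Growth hormone acts in liver through the transcription factor Stat5b, its feedback inhibitor Socs2 and the repressor Bcl6, and sets many female- and male-biased genes. Elovl3, a fatty acid elongase with male-biased expression, had 4.12, 4.34, 4.09 and 4.71 in LP/J and 6.00, 5.93, 6.20 and 6.50 in 129S1/SvImJ. The groups were apart, with a difference of -1.84 (SE 0.41, adjusted p = 0.00168). Igfbp3, a binding protein of insulin-like growth factors, had 6.17, 6.29, 5.79 and 6.84 against 7.79, 8.02, 8.18 and 7.87, a difference of -1.69 (SE 0.32, adjusted p = 7.03e-05), and both of its probe sets passed. Socs2 had 7.97, 7.75, 7.84 and 8.13 in LP/J and 5.54, 5.63, 7.66 and 5.95 in 129S1/SvImJ, and Bcl6 had 5.18, 4.91, 4.79 and 5.0 against 6.79, 6.83, 5.14 and 6.75. In both genes 129S1/SvImJ vehicle animal 3 lay near the LP/J animals, and for Bcl6 inside their range. Socs2 was higher by 1.73 (SE 0.50, adjusted p = 0.0395) and Bcl6 lower by -1.41 (SE 0.39, adjusted p = 0.0267), and without that animal the differences were 2.21 (adjusted p = 0.0061) and -1.82 (adjusted p = 0.00281). The Socs2 call was lost without LP/J vehicle animal 1, 2, 3 or 4 or 129S1/SvImJ vehicle animal 1, 2 or 4 (adjusted p 0.0655 to 0.197), and the Bcl6 call without LP/J vehicle animal 2, 3 or 4 or 129S1/SvImJ vehicle animal 1, 2 or 4 (adjusted p 0.0555 to 0.153). Of 6 probe sets of Socs2 4 had the same sign and 1 passed, and the second probe set of Bcl6 differed by 0.02, with a mean of both of -0.69 (adjusted p = 0.167). Both Socs2 (adjusted p = 0.131) and Bcl6 (0.0961) lost their call with the date block, and that of Bcl6 also in the fits of 15 (0.0883) and 8 arrays (0.057). Igf1 differed by -0.13 and Stat5b by -0.27, and neither passed. The count of called members was 3 without LP/J vehicle animal 1 or 129S1/SvImJ vehicle animal 2 or 4, and 2 without LP/J vehicle animal 2 or 3 or 129S1/SvImJ vehicle animal 1.

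Genes of fatty acid and triglyceride synthesis had 3 of 32 measured members called (9.38%, against 1.69% of all genes), all lower in LP/J, with a list median of -0.20. Besides Elovl3 these were Lpin1 and Gpam, which act in the glycerol 3-phosphate pathway to triglyceride. Lpin1 had 9.29, 10.17, 8.77 and 8.11 in LP/J and 10.72, 10.53, 10.61 and 11.33 in 129S1/SvImJ, a difference of -1.72 (SE 0.41, adjusted p = 0.006), with both probe sets passing. LP/J animals varied over 2 log2 units, and without LP/J vehicle animal 4, the lowest, the difference was -1.39 (adjusted p = 0.0974), and without 129S1/SvImJ vehicle animal 4 it was -1.54 (adjusted p = 0.0503). Gpam had 10.19, 10.46, 10.47 and 10.68 against 11.03, 10.98, 10.74 and 10.81, a difference of -0.44 (SE 0.12, adjusted p = 0.0279), and its call was lost without LP/J vehicle animal 1, 2 or 3 or 129S1/SvImJ vehicle animal 1 or 2 (adjusted p 0.0619 to 0.235). Lpin1 (adjusted p = 0.167) and Gpam (0.248) were not called with the date block, as in the fit of 15 arrays (0.0915 and 0.161). The Gpam call was also lost in the fit of 8 arrays (0.111), with centred arrays (0.0638) and with the mean of its probe sets (-0.27, 0.219). Scd1, the stearoyl-CoA desaturase, was lower in all LP/J animals than in all 129S1/SvImJ animals, at -0.33, but did not pass (adjusted p = 0.848).

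Lipid droplet genes had 2 of 25 measured members called (8.0%, against 1.69% of all genes), both lower in LP/J, with a list median of -0.07. Plin2, the main coat protein of lipid droplets in hepatocytes, had 11.02, 10.84, 11.39 and 11.61 in LP/J and 12.31, 12.41, 12.17 and 11.85 in 129S1/SvImJ. The groups did not overlap, and the difference was -0.97 (SE 0.21, adjusted p = 0.00106). Fitm2, an endoplasmic reticulum protein of droplet budding, had 7.92, 7.89, 7.97 and 8.11 against 8.40, 8.48, 8.68 and 8.31, a difference of -0.49 (SE 0.12, adjusted p = 0.00481). Without 129S1/SvImJ vehicle animal 3 it was -0.42 (adjusted p = 0.0619). Neither Plin2 (-1.10, adjusted p = 0.0768) nor Fitm2 (-0.54, 0.127) was called with the date block, and Fitm2 was not called in the fit of 15 arrays either (0.076). Cidec, a droplet fusion protein, differed by -0.80 (SE 0.37, adjusted p = 0.343) and Cd36, a fatty acid uptake receptor, by -0.72 (SE 0.30, adjusted p = 0.269), and neither passed.

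Targets of PPAR alpha and enzymes of fatty acid oxidation had 1 gene higher, Ech1, and 1 lower, Angptl4, an inhibitor of lipoprotein lipase, among 42 measured (4.76%, against 1.69% of all genes). Angptl4 differed by -0.69 (SE 0.19, adjusted p = 0.0279), and its call was lost without LP/J vehicle animal 1, 3 or 4 or 129S1/SvImJ vehicle animal 1 or 2 (adjusted p 0.0582 to 0.161). In the cholesterol list 1 of 26 was called (3.85%, against 1.69% of all genes). This was Abca1, the cholesterol exporter, with 9.82, 9.86, 9.93 and 9.93 against 10.36, 10.38, 10.32 and 10.39. Its groups were tight and apart, with a difference of -0.48 (SE 0.13, adjusted p = 0.033), and the call was lost without any 1 of the 8 animals (adjusted p 0.0555 to 0.11), with the date block (0.136), in the fit of 15 arrays (0.0579), with centred arrays (0.0628) and with the mean of its probe sets (0.0816). That mean also ended the Angptl4 call (-0.47, adjusted p = 0.278).

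Heme and iron genes had 3 of 29 measured members called (10.3%, against 1.69% of all genes). Id1, a target of the bone morphogenetic proteins that sense iron in liver, had 7.93, 8.24, 8.18 and 8.42 in LP/J and 7.30, 7.06, 6.63 and 6.96 in 129S1/SvImJ, a difference of 1.20 (SE 0.33, adjusted p = 0.0279). Id2 and Id3, inhibitors of the same family that were looked at after the value of Id1 was seen, were higher by 0.83 (SE 0.24, adjusted p = 0.0407) and 1.14 (SE 0.29, adjusted p = 0.0106), both without overlap. Hamp, the iron hormone hepcidin, differed by 0.11 and did not pass (adjusted p = 0.918). Hfe, the hemochromatosis protein, was higher by 0.50 (SE 0.14, adjusted p = 0.0263), but its second probe set differed by -0.50, so the mean of both was 0.00. Abcg2, a transporter of porphyrins and drugs, was lower by -0.88 (SE 0.17, adjusted p = 0.000192), with 7.78, 7.52, 7.85 and 7.58 against 8.44, 8.71, 8.62 and 8.51. The Id1 call was lost without LP/J vehicle animal 2, 3 or 4 or 129S1/SvImJ vehicle animal 2, 3 or 4 (adjusted p 0.067 to 0.12), and the Hfe call without LP/J vehicle animal 1, 3 or 4 or 129S1/SvImJ vehicle animal 1, 3 or 4 (adjusted p 0.051 to 0.105). With the date block the calls of Hfe (adjusted p = 0.119), Id2 (0.225) and Id3 (0.066) were lost, in the fit of 15 arrays that of Hfe (0.125), and with centred arrays those of Id1 (0.0543) and Hfe (0.12). The list had 1 called member without LP/J vehicle animal 3 or 4 or 129S1/SvImJ vehicle animal 3 or 4. The Id2 call was lost without LP/J vehicle animal 3 or 4 or 129S1/SvImJ vehicle animal 1, 2, 3 or 4 (adjusted p 0.067 to 0.244), and the Id3 call without LP/J vehicle animal 3 or 129S1/SvImJ vehicle animal 1 (adjusted p 0.0561 to 0.0853).

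Among genes of intermediary metabolism and secreted proteins, single members were called. Fbp1, the fructose bisphosphatase of gluconeogenesis, was lower by -0.48 (SE 0.09, adjusted p = 9.25e-05), and Gnmt, glycine N-methyltransferase, by -0.37 (SE 0.08, adjusted p = 0.000406). They were the only members called of 29 and of 43 measured genes of their lists (3.45% and 2.33%, against 1.69% of all genes). Mbl1, a mannose-binding lectin of complement, had 9.30, 9.21, 9.13 and 9.27 in LP/J and 10.05, 10.01, 10.42 and 10.29 in 129S1/SvImJ, a difference of -0.97 (SE 0.16, adjusted p = 7.99e-06). Orm3, an orosomucoid of the acute phase, was lower by -1.24 (SE 0.32, adjusted p = 0.0122), and Cox6b1, a cytochrome oxidase subunit, by -0.38 (SE 0.09, adjusted p = 0.00245). Mbl1, Orm3 and Cox6b1 were each the only called member of lists of 40, 29 and 44 measured genes (2.5%, 3.45% and 2.27%). The Orm3 call was lost without LP/J vehicle animal 4 (-1.03, adjusted p = 0.119) or 129S1/SvImJ vehicle animal 2 (-1.16, 0.0745) or 3 (-1.14, 0.0669), and that of Cox6b1 without 129S1/SvImJ vehicle animal 2 (-0.30, 0.0804). With the date block the calls of Fbp1 (adjusted p = 0.125), Gnmt (0.225), Orm3 (0.125) and Cox6b1 (0.162) were lost. In the fit of 15 arrays those of Fbp1 (0.0625), Gnmt (0.0939) and Cox6b1 (0.144) were lost, and in that of 8 arrays those of Gnmt (0.0655) and Cox6b1 (0.137). Of 30 genes of heat shock and protein folding 2 were called (6.67%, against 1.69% of all genes), both higher in LP/J. These were Pdia6, a disulfide isomerase, by 0.77 (SE 0.18, adjusted p = 0.00332), and Hsph1, a heat shock protein, by 1.09 (SE 0.32, adjusted p = 0.0473). The Hsph1 call was lost without LP/J vehicle animal 1, 2, 3 or 4 or 129S1/SvImJ vehicle animal 2, 3 or 4 (adjusted p 0.0558 to 0.219). It was also lost with the date block (adjusted p = 0.0537), with centred arrays (0.0856) and with the mean of its probe sets (0.93, 0.164). The second probe set of Pdia6 differed by 0.22, and with the mean of both (0.49) its call was lost (adjusted p = 0.063).

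Many lists had no called member. They included 24 NRF2 targets, 4 major urinary protein genes, 16 class I and 11 class II histocompatibility genes, 40 interferon-induced genes, 24 lipoprotein genes, 21 clock genes and 30 ribosomal protein genes. The interferon list had a median of 0.25, with values from -0.45 to 0.74, and the values of the strains did not overlap in 11 of the 40 genes, against 10.8% of all genes. Without overlap were also 6 of 21 clock genes (list differences -1.08 to 1.22), 5 of 24 lipoprotein genes and 4 of 24 NRF2 targets. The counts were 1 of 16 class I, 1 of 30 ribosomal protein, 0 of 11 class II and 0 of 4 urinary protein genes. Among 27 genes with known strain variants, such as coat colour genes, 1 was called, Abcc6 (3.7%, against 1.69% of all genes). In all, 18 of 42 lists had a called member. The lists together held 33 called genes among 872 different measured genes, against 307 of 18146 over all genes. Ednrb, the endothelin receptor whose piebald allele LP/J is known to carry, had 4.63, 4.77, 5.02 and 5.29 in LP/J and 5.35, 4.89, 5.42 and 5.68 in 129S1/SvImJ, with overlap and a difference of -0.41 (SE 0.34, adjusted p = 0.702).

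The tissue label was checked against 13 lists of cell type markers. None of the 10 hepatocyte markers was called, with list differences from -0.15 to 0.13. Averaged over the markers within each animal, their level ran from 12.67 to 12.90 in LP/J and from 12.76 to 12.80 in 129S1/SvImJ. The list means below are ranges over animals likewise. Among markers of pericentral hepatocytes 1 of 12 was called (8.33%, against 1.69% of all genes). This was Slc1a2, a glutamate transporter, with 9.60, 9.27, 9.52 and 9.14 against 7.99, 7.30, 8.02 and 8.02, a difference of 1.55 (SE 0.21, adjusted p = 2.51e-09). Of its 5 probe sets 3 passed, and their mean was 1.03. Glul and Cyp2e1 of the same list differed by 0.06 and -0.01. None of the 16 Kupffer cell markers passed, and their mean was 6.12 to 6.74 against 5.85 to 6.60. Of 14 sinusoidal endothelial markers 1 was called (7.14%), the lectin Clec4g, higher by 1.10 (SE 0.22, adjusted p = 0.00031). The median difference of that list was -0.26, and its mean was 5.54 to 6.62 against 5.81 to 6.53. The Clec4g call was lost in the fits of 15 (adjusted p = 0.0882) and 8 arrays (0.113) and with the date block (0.292). Of 12 B and plasma cell markers 1 was called (8.33%), Jchain, the joining chain of secreted immunoglobulin, higher by 1.31 (SE 0.35, adjusted p = 0.0203). Its values were 5.0, 5.53, 6.21 and 5.21 in LP/J against 3.66, 3.97, 4.43 and 4.64. The mean of that list, Jchain included, was 4.61 to 4.67 in LP/J and 4.35 to 4.43 in 129S1/SvImJ. The list's median difference was 0.17, and these levels lay little above the array medians (4.005 to 4.068). The part of plasma cells in the difference of Igkv8-30 was not tested. The Jchain call was lost without LP/J vehicle animal 2 (1.30, adjusted p = 0.0552) or 3 (1.07, 0.187) or 129S1/SvImJ vehicle animal 1 (1.14, 0.13) or 2 (1.24, 0.0906), and in the fit of 15 arrays (0.0725). In whole tissue, fewer cells of a type and less RNA per cell cannot be told apart.

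The pair was close within the panel. Over all genes, the root mean square difference between the vehicle means of LP/J and 129S1/SvImJ was 0.285, place 6 from the lowest among all pairs of the 31 strains, which ran from 0.229 to 0.629 with a median of 0.368. In all, 133 genes differed at least 2-fold between these means, place 2 from the lowest, against a median of 359. Each strain was the nearest neighbour of the other. These are descriptions, since strain means share their arrays between pairs.

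The called genes divided almost evenly by which strain was farther from the panel. LP/J was farther than 129S1/SvImJ from the median of the other 29 strains in 162 of the 307 genes and 129S1/SvImJ was farther in 145. LP/J lay outside the range of the other 29 strain means in 72 genes and 129S1/SvImJ in 61. Over all 18146 genes these counts were 1428 and 1290. In 232 of the 307 genes more than 3 of the other 29 strains lay nearer LP/J and more than 3 nearer 129S1/SvImJ. For Ctse, 10 of the other strain means lay nearer LP/J and 19 nearer 129S1/SvImJ. Its means in those 29 strains ran from 4.62 in C57BLKS/J to 10.91 in BUB/BnJ, with none between 5.65 and 8.03. For Akr1c18, 5 strains were nearer LP/J, with KK/HIJ at 8.76 as the highest.

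In some genes 1 of the 2 strains was the highest or the lowest of the panel. Dhdh was at 3.81 ± 0.11 (SD, n = 4) in LP/J and between 7.79 and 8.97 in the other 29 strains, and Tulp2 was at 6.87 ± 0.09 (SD, n = 4) against 3.06 to 3.42. No other strain was nearer LP/J than 129S1/SvImJ in 10 genes, these included. Slc10a2 was the reverse, at 4.88 ± 0.68 (SD, n = 4) in 129S1/SvImJ, the highest of 31 strains, against 2.03 to 3.65 in the other 29. Plin2 in LP/J, at 11.22 ± 0.35 (SD, n = 4), was the lowest of the 31 strain means, close below the other 29, which ran from 11.34 to 13.07, and 5 of these were nearer LP/J than 129S1/SvImJ. Dct in 129S1/SvImJ, at 3.37 ± 0.81 (SD, n = 4), was the lowest, next to PWK/PhJ at 3.48, and LP/J at 5.48 was itself below most strains, whose median was 7.81.

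**Figure D4:**
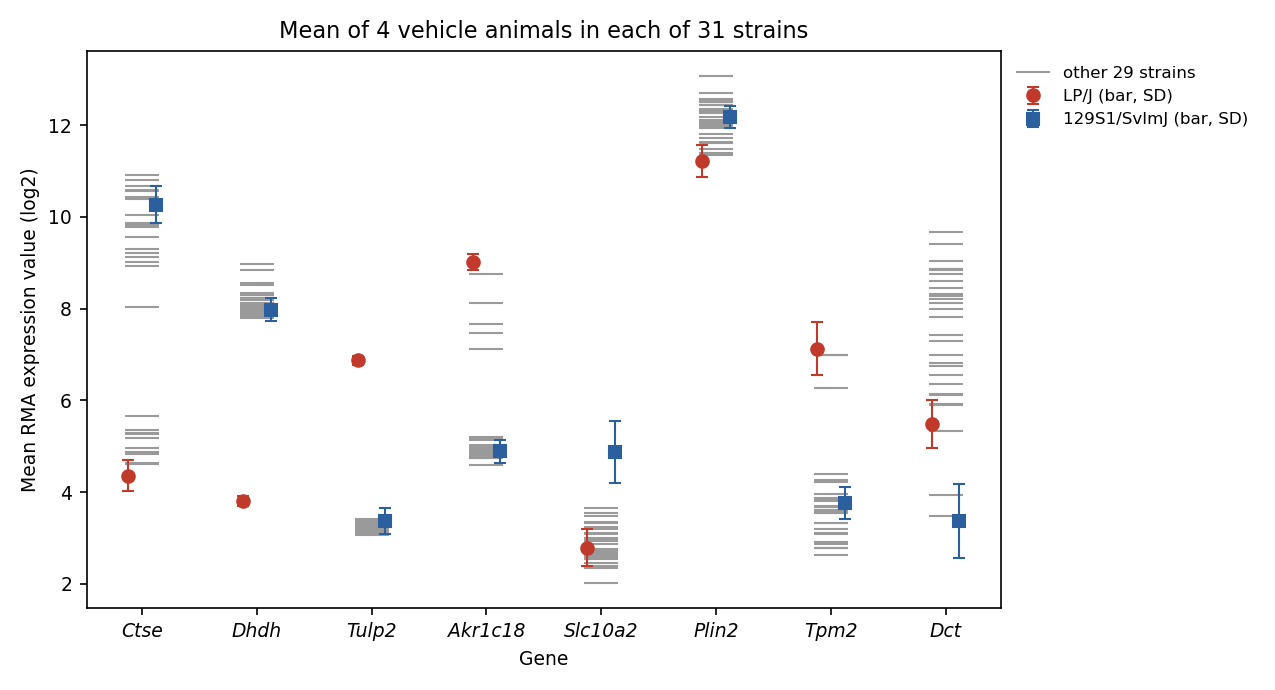
Mean RMA expression value (log2) of 4 vehicle animals in each of 31 strains for 8 genes, with LP/J and 129S1/SvImJ marked and their SD as bars and the other 29 strains as grey dashes. Dhdh and Tulp2 set LP/J apart from all strains, Slc10a2 sets 129S1/SvImJ apart, and the strain means of Ctse fall into a low set that holds LP/J and a high set that holds 129S1/SvImJ.

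The strain difference was measured a second time in the isoniazid animals, a separate set of 7 mice. Between 3 LP/J and 4 129S1/SvImJ animals, 285 genes passed (1.57%), 94 higher and 191 lower in LP/J. The count was 119 without LP/J isoniazid animal 1, the narrow-spread array among these, and 833 without LP/J isoniazid animal 3. Of the 307 genes called in vehicle animals, 278 had the same sign, and 112 passed in both sets, all in the same direction, which is 36.5% of the vehicle calls and 39.3% of the isoniazid calls. Ctse differed by -5.65 (SE 0.31), Dhdh by -4.22 (SE 0.17), Tulp2 by 3.73 (SE 0.20) and Akr1c18 by 3.56 (SE 0.23) in the isoniazid animals. In these 4 genes the 3 LP/J and 4 129S1/SvImJ isoniazid animals did not overlap. Of the 307 genes, 143 were without overlap in the isoniazid animals in the same direction.

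Some genes differed less or more in the isoniazid animals. Plin2 had 11.68, 12.01 and 12.59 in LP/J and 11.97, 12.13, 12.53 and 11.92 in 129S1/SvImJ after isoniazid, with overlap and a difference of -0.05 (SE 0.23, adjusted p = 0.954) against -0.97 in vehicle animals. The change of the strain difference was 0.92 (adjusted p = 0.75). Slc10a2 differed by -3.30 and Lpin1 by -3.07 after isoniazid, against -2.09 and -1.72, and the changes of -1.21 and -1.35 did not pass (adjusted p = 0.75 and 0.953). In limma's test of this change over all genes, 0 of 18146 passed (0.0%), 932 had an unadjusted p under 0.05, and the smallest adjusted p was 0.056. That gene was Tgds, beside Dct in the gene order, higher in LP/J by 0.71 in vehicle animals and at -0.31 after isoniazid, a change of -1.01. It was named for its p after the values were seen.

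**Figure D5:**
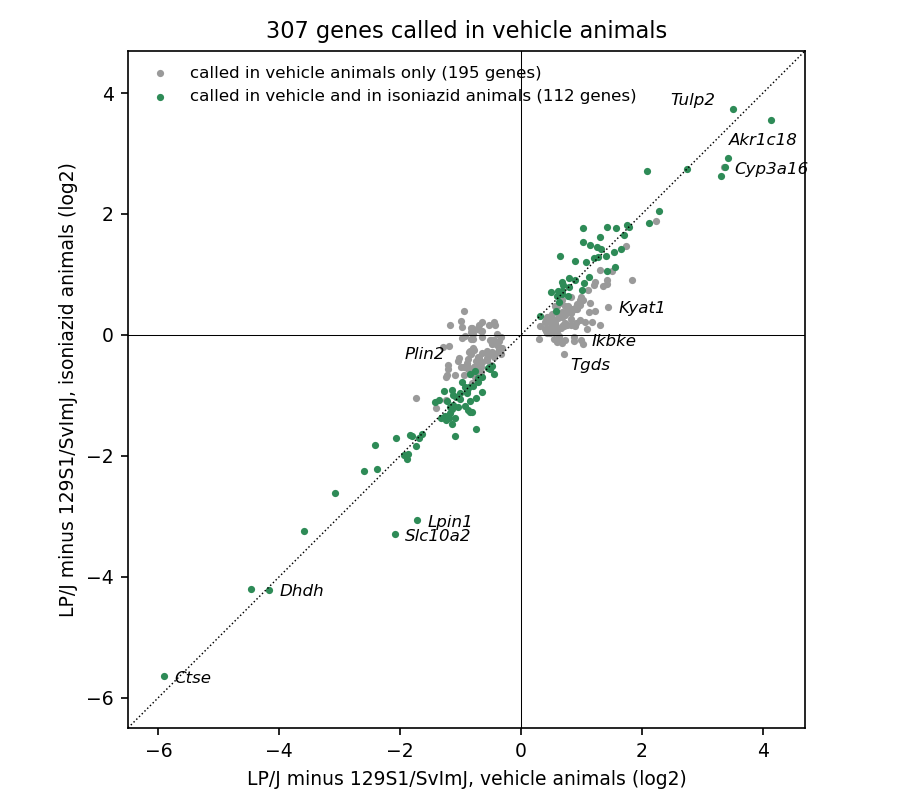
Difference between the strains (LP/J minus 129S1/SvImJ, log2) in isoniazid animals (3 and 4 mice) against that in vehicle animals (4 and 4 mice) for the 307 genes called in vehicle animals, with the line of equality dotted. The 112 genes also called in isoniazid animals include Ctse at -5.91 and -5.65, and Plin2 lies near 0 on the vertical axis at -0.05.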

How the data were processed

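Liver RNA was labelled with the GeneChip 3′ IVT Express kit and hybridised to 1 Affymetrix mouse array per animal, per the labels' protocols. The authors deposited 1 log2 expression value for each probe set and array. Per the submitters' processing notes, the tools were RMA and Affymetrix Power Tools, with no version named in the sources used here. This method subtracts background, gives all arrays a like distribution and combines the probes of a set, so a shift of a whole array is largely removed and low signals are compressed. Of 44721 probe sets, 34717 had 1 gene symbol in the platform annotation, 872 several, 9072 none, and 60 were controls. The 18146 genes were each represented by their brightest probe set, by its mean across the 235 arrays.

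Groups came from the sample labels, and each array is a separate mouse. The means of 62 groups (31 strains, 2 treatments) were fitted on 235 arrays with limma 3.58.1 in R 4.3.3 (lmFit and eBayes, 173 residual degrees of freedom), so the spread is shared over all groups. P-values were two-sided and adjusted over 18146 genes by the Benjamini-Hochberg method, and a gene was called at an adjusted p under 0.05. The fit was tested on simulated data. The number of arrays limits the precision. Same-numbered LP/J and 129S1/SvImJ vehicle animals did not deviate together (correlations 0.0201, 0.0128, 0.0392 and -0.0602), so no pairing was used. The strain pair and the gene lists were chosen with earlier results of these data known. Genes named are the 12 largest differences in each direction among called genes without overlap, up to 4 called members per list by p, members of runs of at least 4 called genes, and Nat1, Nat2, Cyp2e1, Ces1d, Alas1, Scd1, Cidec, Plin2, Cd36, Ednrb and Disc1 (not measured here). Cyp7a1, Igf1, Stat5b, Hamp and Glul were added for their known roles, and other genes named beyond this are said to be so. Promoter windows are from RefSeq on GRCm38.p6 and were aligned with Biopython 1.88. Alternatives changed the arrays used, the blocks, the probe set rule, the centring, the filter on dim genes and the animals left out.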

Additional observations from a re-analysis of the deposited data

Results flagged for a closer look

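For the genes named, 213 groups of 4 animals were examined for a single animal far from the others, and 12 had a gap to the nearest value above Dixon's 95% critical share of the group's range, where chance gives about 1 in 20. In LP/J vehicle animals these were Cyp3a16 in animal 4 (8.35, the highest), Atp11a in animal 2 (6.09, the lowest) and Lgals4 in animal 4 (6.83, the highest). In 129S1/SvImJ vehicle animal 1 they were Cyp3a13 (10.54, the lowest), Slco1a1 (5.35, the lowest) and Bcat2 (5.87, the highest). In 129S1/SvImJ vehicle animal 3 they were Bcl6 (5.14, the lowest), Nat1 (5.78, the lowest) and Nucb1 (8.94, the highest), and in animal 2 Slc1a2 (7.30, the lowest). In 129S1/SvImJ isoniazid animal 1 they were Dram1 (2.91) and Akr1c19 (7.98).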

How the results depend on the processing

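Where 307 genes were called in vehicle animals, 167 were called with a replicate block over the 8 arrays (133 of the 307 among them), 152 with the scan date as a block over the same 8 arrays (116 of the 307), 416 with the 8 arrays alone (217 of the 307) and 752 without narrow-spread arrays, which held all 307. Leaving out 1 animal gave 195 (without 129S1/SvImJ vehicle animal 2) to 281, and 143 of the 307 genes were called each time. The replicate block over all arrays gave 307, with 305 shared. Only the arrays of the 2 strains gave 206 (171 of the 307), and centred arrays 242 (235 of the 307). The mean of the probe sets of a gene gave 328 (235 of the 307), and leaving out dim genes 297 (260 of the 307). The replicate numbers do not pair the animals, and 3 of the 4 same-numbered pairs share a scan date. The 285 isoniazid calls became 166 with only the arrays of the 2 strains, 188 with the scan date as a term and 119 to 833 with 1 animal left out (119 without LP/J isoniazid animal 1, 833 without LP/J isoniazid animal 3). The share of higher calls in isoniazid animals was 33.0%, 43.6% with the date term, 53.1% without narrow-spread arrays and 51.3% without LP/J isoniazid animal 1. Calls of a change between treatments, 0 as reported, were 3 with the date term, 2 without dim genes, 1 without narrow-spread arrays and 0 to 2 with 1 animal left out. The cause of these shifts was not tested. Of 62 called named genes, 31 kept the call under each alternative run, 31 lost it in at least 1 and 16 in at least 5, and none of the 62 turned direction. Tulp2, Dram1, Tpm2, Mcf2l, Slc10a2, BC018473, Jchain and Akr1c21 had 18 alternatives and not 19, since the filter on dim genes left them out. Differences near 0 turned sign for Nat1, at 0.02 with the date term and -0.09 to 0.07 with 1 animal left out, and for Cyp2e1, at -0.03 to 0.02 with 1 animal left out. Differences among probe sets near the lowest signals are compressed, and their size is limited by signal over background.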

Other observations

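Several called genes outside the lists were named after their values were seen. Npr2, a receptor for C-type natriuretic peptide, had 8.16, 8.21, 7.93 and 8.04 in LP/J and 6.20, 7.01, 6.56 and 6.88 in 129S1/SvImJ, a difference of 1.42 (adjusted p = 2.11e-11 by limma). Kyat1, an enzyme that makes kynurenic acid, had 9.58, 8.95, 9.16 and 8.78 against 7.48, 7.53, 7.82 and 7.88, a difference of 1.44 in vehicle animals and 0.46 in isoniazid animals. Aox1, aldehyde oxidase, was higher in LP/J by 1.23 (adjusted p = 0.00577). Gpd2, the mitochondrial glycerol 3-phosphate dehydrogenase, had 8.26, 8.27, 8.38 and 8.49 against 9.49, 9.58, 9.37 and 9.52, a difference of -1.14 (adjusted p = 3.83e-05).

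LP/J had the lowest mean of the 31 strains for Slc16a1, the lactate and ketone body transporter, and for Lpcat3, which loads polyunsaturated fatty acids into phospholipids. Slc16a1 had 7.90, 8.69, 8.38 and 8.40 in LP/J against 9.30, 9.83, 9.62 and 9.09, a difference of -1.12, and the other 29 strains ran from 9.03 to 10.74. Lpcat3 differed by -0.74 with no overlap. For Lpcat3, 8 of the other 29 strains lay nearer LP/J than 129S1/SvImJ, against 0 for Slc16a1. Rpl41, a ribosomal protein gene, differed by 1.78 (adjusted p = 1.36e-18) by 1 of its 4 probe sets, whose differences ran from -0.23 to 1.78.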
